A study of Mus musculus with 8 samples.

Results

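The genes described here encode inhibitors that act back on the RAS-ERK branch of MAP kinase signalling: the ERK phosphatase genes Dusp4 and Dusp6, the Sprouty genes Spry1, Spry2 and Spry4, the Spred genes Spred1 and Spred2, and Ier3. Members were taken by symbol from the probe annotation of the array. That gave 12 probe sets for 7 of the 8 genes, out of 22626 probe sets and 12393 named genes tested. No probe set used here was named for Dusp4, which is not analysed here. The genes were chosen by name and not by a cut on their values, but earlier results of these data were known.

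RNA of the ventral prostate was hybridised to Affymetrix arrays, 1 per sample, from FVB mice aged 20 weeks. The 4 wild type samples are labelled as normal prostate. The 4 transgenic samples overexpress p110 beta, one of the catalytic subunits of PI3-kinase, as an active allele, and are labelled as mouse prostatic intraepithelial neoplasia, a lesion of atypical epithelium within the glands. The promoter that drives the transgene is not given in the sources used here, nor is it stated whether the samples are separate animals. The p-values therefore reflect the spread over these 8 samples, part of which may be technical. The secretory genes Pbsn and Msmb, markers of prostate epithelium picked after the values were seen, lay above every array median in all 8 arrays, Pbsn at 12.4 to 13.2 in wild type and 11.0 to 12.1 in transgenic arrays and Msmb at 13.1 to 13.6 in wild type and 10.6 to 12.4 in transgenic arrays. The question was how the inhibitors of the ERK branch differ between normal prostate and this lesion.

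Growth factor receptors at the cell surface activate RAS, which activates RAF kinases, then the MEK kinases and then ERK. ERK signalling switches on the transcription of genes whose products dampen the same route, so the RNA of several of these inhibitors is often used as a readout of past ERK signalling. DUSP6 removes the activating phosphates from ERK in the cytoplasm, Sprouty proteins act between the receptor and RAF, and Spred proteins bring the RAS inhibitor neurofibromin to the membrane. IER3 is a small immediate early protein that binds ERK and has been described as prolonging ERK activity, so it is not an inhibitor in the sense of the others. The arrays measured RNA and hold no value for ERK phosphorylation.

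The inhibitors did not move together. Dusp6 fell and Spry1 rose, and the probe sets representing the other 5 measured genes did not pass the threshold of adjusted p = 0.05. By gene, 2 of 7 members passed, 1 in each direction, where 11.0% of all genes passed in either direction, 5.99% higher and 4.98% lower. The median log2 fold change over the 7 genes was -0.10, and over all genes it was -0.04. By probe set, 3 of 12 passed, 1 higher and 2 lower, against 9.84% of all probe sets, 5.48% higher and 4.36% lower. The third was 1 of the 3 probe sets of Spred1, which is not the one with the highest signal.

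The bases upstream of the start sites of Dusp6 and Spry1 are shown because these are the members that passed, in opposite directions. Each sequence is the 250 bases before the start site in RefSeq's GRCm38.p6 annotation, chr10:99262981-99263230 on the plus strand for Dusp6 and chr3:37639697-37639946 on the plus strand for Spry1. Capitals mark the ETS core CGGAA on either strand, the short motif bound by ETS factors, many of which are ERK targets.
Dusp6: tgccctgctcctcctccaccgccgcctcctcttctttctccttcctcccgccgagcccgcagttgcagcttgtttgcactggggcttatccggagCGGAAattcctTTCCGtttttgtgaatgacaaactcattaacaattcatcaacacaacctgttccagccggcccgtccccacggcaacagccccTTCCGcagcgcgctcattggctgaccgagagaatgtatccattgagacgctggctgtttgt
Spry1: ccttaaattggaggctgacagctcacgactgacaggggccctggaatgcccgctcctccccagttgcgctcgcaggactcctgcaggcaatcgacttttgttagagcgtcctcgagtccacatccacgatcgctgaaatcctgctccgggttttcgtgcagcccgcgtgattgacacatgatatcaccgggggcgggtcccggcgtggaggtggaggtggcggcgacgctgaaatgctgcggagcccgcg
Dusp6 held 3 matches to the ETS core, beginning 155, 144 and 61 bases before the start, and Spry1 held 0. Of 32851 mouse promoters read over the same length, 25.2% held at least 1 match. A longer ETS motif, CCGGAAG, was searched first and had 0 matches in these 6 promoters, against 6.91% of all promoters, and the shorter core and the cyclic AMP motif were chosen after that was seen. Of the 6 members with a promoter in the table, Spred2 held 2 matches and Spred1 held 1. The AP-1 motif TGANTCA and the forkhead motif TGTTTAC, of the FOXO factors that PI3-kinase signalling restrains, had 0 matches in these 6 promoters, against 6.75% and 3.17% of all promoters, and the motif TGACGTC of cyclic AMP response elements matched in Spred2 alone (2.78% of all promoters). The longer ETS motif contains the core, and the other motifs do not overlap it or one another in these windows. A match describes these letters and is not a measured binding site.

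Dusp6, the ERK phosphatase gene, was lower in every transgenic array than in every wild type array. Its log2 values were 5.14, 5.37, 5.36 and 5.46 in wild type arrays 1 to 4 and 4.49, 4.48, 4.57 and 4.47 in transgenic arrays 1 to 4. The transgenic arrays lay within a narrow band and the groups did not overlap. The mean went from 5.33 ± 0.14 to 4.50 ± 0.05 (SD, n = 4 each), a log2 fold change of -0.83 ± 0.10 (SE; limma adjusted p = 0.000243; 95% interval -1.05 to -0.62). The transgenic level was thus 56.2% of the wild type level. Among the 617 genes that fell, Dusp6 ranked 40 by p-value and 135 by size. Both group means lay below the median of every array, which ranged from 5.40 to 5.51, where background can set the value, so the size of this fall is approximate. Dusp6 has a single probe set here, and no second one could be set beside it.

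Spry1, which encodes a Sprouty protein acting upstream of RAF, moved the other way. Its log2 values were 7.003, 7.16, 6.76 and 6.60 in wild type arrays 1 to 4 and 7.71, 7.37, 7.39 and 7.44 in transgenic arrays 1 to 4. The highest wild type array lay below the lowest transgenic array, by a small margin. The mean was 6.88 ± 0.25 in wild type and 7.48 ± 0.16 in transgenic arrays (SD, n = 4 each), a rise of 1.51-fold (log2 0.60 ± 0.14, SE; limma adjusted p = 0.0165). It ranked 485 by size among the 742 genes that rose. Without wild type array 3 it missed the threshold (log2 0.56, limma adjusted p = 0.0585).

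**Figure D1:**
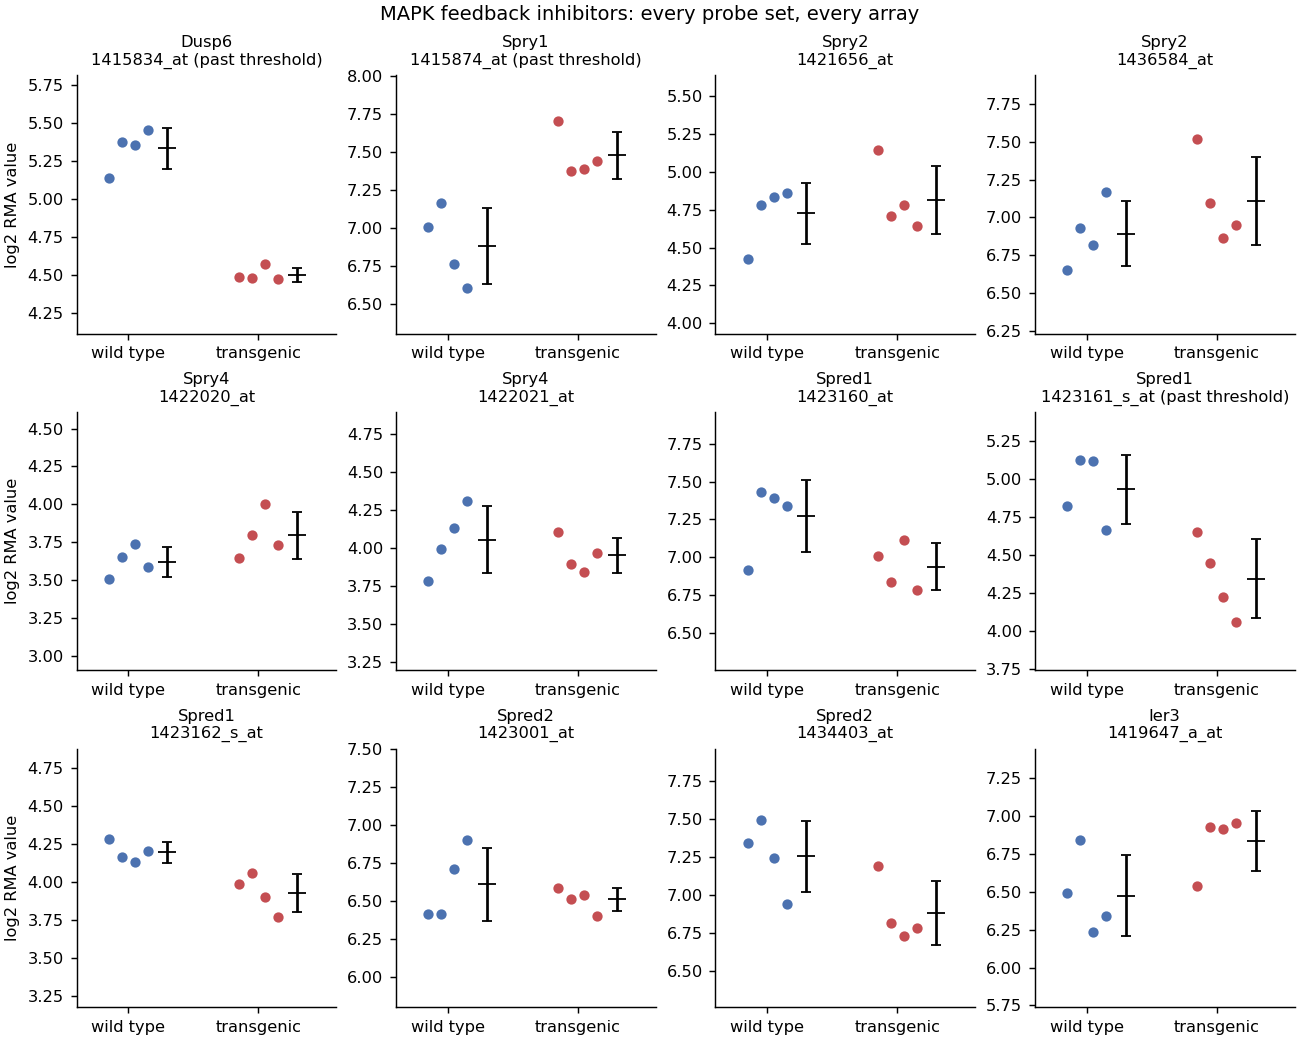
Log2 RMA value (vertical axis, the same span of 1.7 in every panel, set around each probe set's own values) of the 12 probe sets in wild type (blue) and transgenic (red) arrays; points are arrays 1 to 4 from left to right, and the bar beside them is the mean ± SD. Dusp6 and Spry1 separate the groups in opposite directions, with Dusp6 at 5.14 to 5.46 against 4.47 to 4.57 and Spry1 at 6.60 to 7.16 against 7.37 to 7.71.

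The other Sprouty genes gave small differences with overlapping groups. Spry2, which encodes another Sprouty protein of the receptor to RAF step, was read by 2 probe sets. On the brighter one its values were 6.65, 6.93, 6.82 and 7.17 in wild type arrays 1 to 4 and 7.52, 7.10, 6.87 and 6.95 in transgenic arrays 1 to 4. Transgenic array 1 was the highest of all 8, and the other transgenic arrays lay within the wild type range. The log2 fold change was 0.21 (95% interval -0.13 to 0.55; limma adjusted p = 0.508). The second Spry2 probe set was at 0.09 (95% interval -0.21 to 0.39), with transgenic array 1 again the highest at 5.14 and wild type array 1 the lowest at 4.43.

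Spry4 encodes a further Sprouty protein, and both of its probe sets were dim. They lay between 3.51 and 4.31 on every array, below every array median, and they differed in sign. One had a log2 fold change of 0.18 (95% interval -0.06 to 0.41; limma adjusted p = 0.404) and the other of -0.10 (95% interval -0.37 to 0.17; limma adjusted p = 0.720). At this signal a change of Spry4 could be missed, and no direction is read.

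For Spred1, whose protein holds neurofibromin at the membrane, the 3 probe sets shared a sign, and 1 of them fell. The brightest read 6.92, 7.43, 7.39 and 7.34 in wild type arrays 1 to 4 and 7.01, 6.84, 7.12 and 6.78 in transgenic arrays 1 to 4. Wild type array 1 lay among the transgenic arrays, while the other wild type arrays lay above them. Its log2 fold change was -0.33 ± 0.13 (SE; limma adjusted p = 0.162). Without wild type array 1 that probe set was at -0.45 and passed (limma adjusted p = 0.0239).

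The second Spred1 probe set went from 4.93 ± 0.23 to 4.34 ± 0.26 (SD, n = 4 each), a log2 fold change of -0.59 ± 0.15 (SE; limma adjusted p = 0.0296). Its lowest wild type array, 4.66, was just above its highest transgenic array, 4.65. It missed the threshold when wild type 2 or 3, or transgenic 2, 3 or 4, was left out (limma adjusted p from 0.0599 to 0.0992), under quantile normalization (0.0504) and under cyclic loess normalization (0.0545). The third went from 4.19 ± 0.07 to 3.93 ± 0.12 (SD, n = 4 each) with groups that did not overlap, and did not pass (limma adjusted p = 0.125). These 2 dimmer probe sets lay below every array median and carry the array's mark for probes shared between transcripts, and the annotation ties all 3 to the same source sequence. When the 3 were averaged, Spred1 was at -0.40 and passed (limma adjusted p = 0.0241). Groups that did not overlap were found for 4 of the 12 member probe sets, those of Dusp6 and Spry1 and the 2 dimmer ones of Spred1, against 15.0% of all probe sets.

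Spred2, the relative of Spred1 with the same partner, had 2 probe sets of different size. The brighter one read 7.35, 7.50, 7.24 and 6.94 in wild type arrays 1 to 4 and 7.19, 6.82, 6.73 and 6.78 in transgenic arrays 1 to 4. Wild type array 4 was the lowest of its group and transgenic array 1 the highest of its group, and these overlapped. The log2 fold change was -0.38 ± 0.14 (SE; limma adjusted p = 0.135), and without wild type array 4 or transgenic array 1 it was -0.48 and passed (limma adjusted p = 0.0460 and 0.0473). The other probe set was at -0.10 (95% interval -0.37 to 0.17; limma adjusted p = 0.732).

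Ier3, the immediate early member, had values of 6.49, 6.84, 6.23 and 6.34 in wild type arrays 1 to 4 and 6.53, 6.93, 6.91 and 6.95 in transgenic arrays 1 to 4. Transgenic arrays 2 to 4 lay close together above every wild type array, while transgenic array 1 lay below wild type array 2. The log2 fold change was 0.36 ± 0.15 (SE; 95% interval 0.04 to 0.68), which did not pass (limma adjusted p = 0.177).

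**Figure D2:**
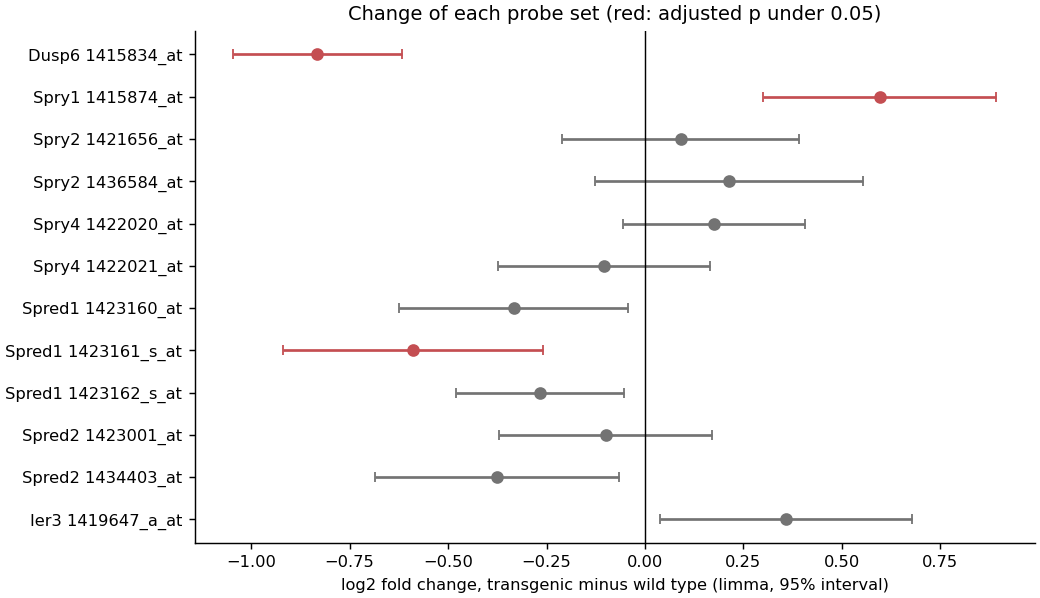
Log2 fold change, transgenic minus wild type, of the 12 probe sets (points) with the 95% interval of the limma fit (bars); red marks an adjusted p under 0.05. Dusp6 at -0.83 and Spry1 at 0.60 lie at the ends, the 5 probe sets of Spred1 and Spred2 lie between -0.59 and -0.10, and the 4 of Spry2 and Spry4 lie between -0.10 and 0.21.

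The genes with profiles most like those of Dusp6 and Spry1 were sought over the 8 arrays, after centring each gene on its own mean, by the root mean square difference of log2 values. Since both members differ between the groups, near genes differ between the groups too. Nearest to Dusp6 was Col17a1, which encodes a collagen of the hemidesmosomes that anchor basal cells, at a difference of 0.0800. The median gene lay at 0.432. Col17a1 went from 5.41 ± 0.09 to 4.59 ± 0.10 (SD, n = 4 each; limma adjusted p = 0.000225). Next were Mxra8, at 0.106, and Rexo2, which encodes an exonuclease for short RNAs, at 0.111. Mxra8 fell by 0.67 and Rexo2 fell by 0.72 on the log2 scale.

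Nearest to Spry1 were Kif1c, a kinesin motor gene, at 0.0821, Myo6, encoding an unconventional myosin, at 0.0842, and Smad4, encoding the shared effector of TGF-beta and BMP signalling, at 0.0884, with the median gene at 0.407. Like Spry1, these 3 genes had their highest value in transgenic array 1 and their lowest in wild type array 4. Smad4 went from 9.66 ± 0.13 to 10.33 ± 0.14 (SD, n = 4 each; limma adjusted p = 0.00227), and Myo6 rose by 0.61 on the log2 scale (limma adjusted p = 0.0104). Kif1c rose by 0.48 (limma adjusted p = 0.0340), but missed the threshold when any of 6 arrays was left out (limma adjusted p up to 0.111).

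**Figure D3:**
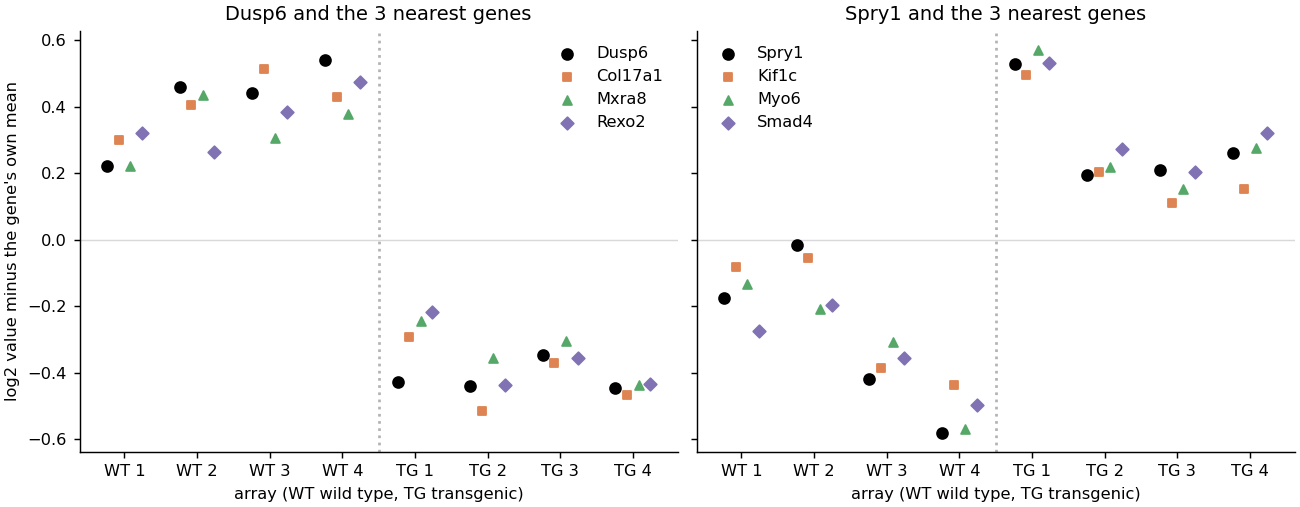
Log2 value minus the gene's own mean over the 8 arrays (vertical axis) in each wild type (WT) and transgenic (TG) array, for Dusp6 (left) and Spry1 (right) in black and the 3 genes nearest to each in colour. The points of a panel stay close within every array, with root mean square differences of 0.0800 to 0.111 for Dusp6 and 0.0821 to 0.0884 for Spry1.

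Other genes of the route were called in both directions. Over 7 lists of the route and a list of immediate early genes, 85 of 101 distinct genes were measured. Of these 10 rose (11.8%) and 4 fell (4.71%), 16.5% in all, beside 5.99%, 4.98% and 11.0% of all genes, and their median log2 fold change was -0.01. Without the immediate early list, 6 of 73 rose and 4 fell, 13.7% in all. Of the 10 growth factor receptor genes 1 rose and 2 fell. Fgfr1, a receptor that signals strongly through ERK, went from 5.84 ± 0.30 to 5.14 ± 0.15 (SD, n = 4 each; limma adjusted p = 0.0108), and its other probe set was at -0.44. Igf1r, the IGF-1 receptor gene, fell by 0.48 (limma adjusted p = 0.0246), and its other probe set was at 0.03. Erbb3, a receptor that couples to PI3-kinase, rose by 0.39 (limma adjusted p = 0.0348), with its other probe set at 0.02. Fgfr3, another FGF receptor gene, was not called by its brighter probe set (0.15), while its other one fell (-0.48, limma adjusted p = 0.0289). Igf1r missed the threshold when wild type 3, transgenic 1 or transgenic 4 was left out (limma adjusted p up to 0.0801) and with the replicate number as a block (0.0604), and Erbb3 without any one of 7 arrays (limma adjusted p up to 0.118) and with the block (0.0519).

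Of 16 measured genes of the RAS-ERK core and its adaptors, 1 rose and 1 fell, with a list median of 0.03. Map2k1, encoding the ERK kinase MEK1, read 7.83, 7.68, 7.83 and 7.66 in wild type arrays 1 to 4 and 8.16, 8.21, 8.10 and 8.15 in transgenic arrays 1 to 4. The groups did not overlap, and the rise was 0.40 ± 0.09 on the log2 scale (SE; limma adjusted p = 0.0158). Map2k1 missed the threshold without transgenic array 2 (0.0599) and with the block (0.0530). Araf, a RAF kinase gene, fell by 0.61 (limma adjusted p = 0.0417), but missed the threshold when any of 6 arrays was left out (limma adjusted p up to 0.132), under quantile (0.0538) and cyclic loess normalization (0.0566) and with the block (0.0705). The brightest probe set of Nras, a RAS gene, did not pass (0.36, limma adjusted p = 0.0637), and 1 of its 3 rose (0.70, limma adjusted p = 0.0424). Nf1, which encodes the neurofibromin that Spred proteins recruit and was picked after its values were seen, was at 5.57 ± 0.23 and 5.58 ± 0.21 (SD, n = 4 each).

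Of 8 measured kinases and transcription factors that ERK phosphorylates, Mknk2 rose and the others did not pass. Mknk2 encodes a kinase of the translation factor eIF4E and went from 10.10 ± 0.12 to 10.89 ± 0.27 (SD, n = 4 each; limma adjusted p = 0.00347), while its other probe set was at 0.19 and did not pass. The ETS factor genes Etv4 and Etv5, whose RNA often rises with ERK signalling, were at -0.11 and -0.19 and did not pass (limma adjusted p = 0.771 and 0.354). Etv4, Etv5 and the genes named in the next sentence that did not pass were picked after their values were seen. Of 16 measured genes that ERK signalling induces, 0 rose and 1 fell, with a median of -0.06, and Fos, Myc and Ccnd1 were at 0.61, -0.21 and -0.53 without passing. Both means of 6 of these 16 genes, Etv5 and Fos among them, lay below every array median, where a change can be missed. Hbegf, a ligand of the EGF receptor, went from 6.65 ± 0.46 to 5.87 ± 0.11 (SD, n = 4 each; limma adjusted p = 0.0239), and both of its probe sets fell. It lost its call without transgenic array 2, 3 or 4 (limma adjusted p up to 0.0740).

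Of 9 measured phosphatase genes related to Dusp6, Dusp1 rose and 8 did not pass. Dusp1 encodes an immediate early nuclear phosphatase of several MAP kinases. It read 5.94, 7.59, 5.90 and 5.90 in wild type arrays 1 to 4 and 7.60, 7.69, 7.46 and 7.66 in transgenic arrays 1 to 4. Wild type array 2 lay within the transgenic range and far from the other wild type arrays. The rise of 1.27 ± 0.32 (SE; limma adjusted p = 0.0267) was lost when any array other than wild type 2 or transgenic 1 was left out (limma adjusted p up to 0.0903). Of 10 measured inhibitors at the receptor level, 2 rose, Ptpn1, a tyrosine phosphatase gene, by 0.65 (limma adjusted p = 0.0105) and Dok1, an adaptor that recruits a RAS inhibitor, by 0.43 (limma adjusted p = 0.0312). The other probe set of Ptpn1, at 0.28, did not pass, and Dok1 lost its call without any one of 5 arrays (limma adjusted p up to 0.105) and with the block (0.0874). Lrig1, which encodes a membrane protein that restrains EGF receptors, counts as not passing because its brightest probe set was at 0.01 (limma adjusted p = 0.98). Its other probe sets both rose, one from 4.90 ± 0.22 to 6.12 ± 0.31 (SD, n = 4 each; log2 1.22, limma adjusted p = 0.000541) and one by 0.99 (limma adjusted p = 0.00459), more than Ptpn1 or Dok1. Lrig1, Nras and Fgfr3 are given because another of their probe sets passed, which was seen in the values. Among 8 measured relatives and partners of Sprouty and Spred proteins 0 passed in limma. The smallest p-value there belonged to Siah2, a ubiquitin ligase gene that acts on Sprouty proteins, at -0.43 (limma adjusted p = 0.0531), which passed without wild type array 2 (0.0287), without the dimmest probe sets (0.0453) and with its probe sets averaged (0.0375).

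**Figure D4:**
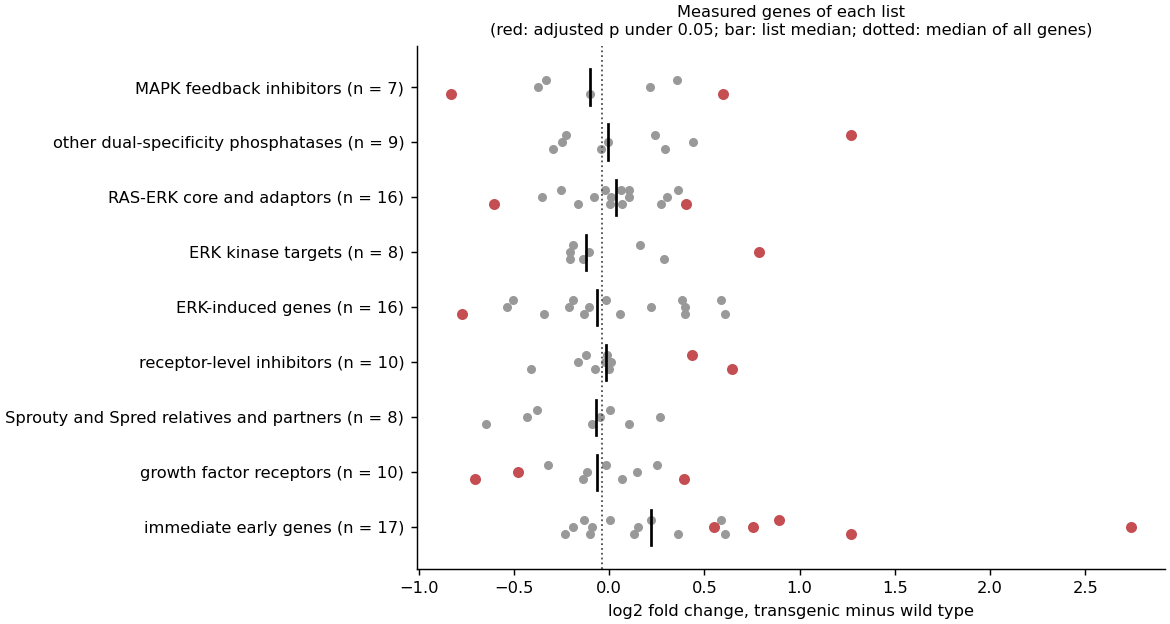
Log2 fold change, transgenic minus wild type (horizontal axis), of every measured gene of the member list and of 8 further lists (rows, with the number measured); red points have an adjusted p under 0.05, black bars are list medians and the dotted line is the median of all genes, -0.04. Calls lie on both sides in the lists of RAS-ERK core genes and receptors, and the immediate early list has its 5 calls to the right, with Klf4 at 2.74.

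Measures that tissue handling, cell makeup or RNA quality can shift differed on average between the groups. For the immediate early list and the RNA quality measure the ranges of the groups overlapped. Fits with some measures as covariates are given below, but the part of these factors in the results was not tested. Of 17 immediate early genes, which tissue handling can raise, 5 rose and 0 fell, with Klf4 going from 6.33 ± 0.35 to 9.07 ± 0.17 (SD, n = 4 each; limma adjusted p = 1.94e-06) and Jun from 6.19 ± 0.26 to 6.95 ± 0.25. The other 12 did not pass, and over the list 12 values were positive and 5 negative, with a median of 0.22. Fos, Egr1, Junb and Ier2 are also on the list of ERK-induced genes, so this list is not a measure of handling alone. The list's mean log2 value was 6.86 in wild type array 2, 6.32 in each of the other wild type arrays and between 6.84 and 7.02 in the transgenic arrays. Wild type array 2 was also the highest wild type array for Ier3 and Spry1. The same held for the first and second Spred1 probe sets and the brighter Spred2 one, whose means were lower in the transgenic arrays. Wild type array 2 also had the highest mean of any array for the smooth muscle (8.83), fibroblast (8.09) and macrophage (6.52) marker lists described below. Klf6, also called, missed the threshold when any of 6 arrays was left out (limma adjusted p up to 0.0949).

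Of 10 basal epithelial markers 0 rose and 5 fell, with Krt15 at -1.32 (limma adjusted p = 0.00849) and Krt5 going from 8.33 ± 0.24 to 7.11 ± 0.22 (SD, n = 4 each), and the list's mean lay between 6.28 and 6.43 in wild type and between 5.80 and 5.96 in transgenic arrays. As for Dusp6, these ranges do not overlap, and the same holds for the means of the luminal, smooth muscle and nerve lists. The nerve list has only 3 measured genes, of which Ncam1 alone passed, and its median log2 fold change was -0.10. Col17a1, the gene nearest to Dusp6, belongs to the basal list, while the next nearest, Mxra8 and Rexo2, do not. A basal score, the mean of the centred values of this list, lay between 0.15 and 0.30 in wild type and between -0.33 and -0.16 in transgenic arrays, so that it nearly coincides with the groups. With the score as a covariate Dusp6 was at -0.32 ± 0.41 (SE; limma adjusted p = 0.828) and Spry1 at 0.83 ± 0.59 (SE; limma adjusted p = 0.706), and of all genes 3 rose and 0 fell, so few genes of any kind could be called in that fit. In whole tissue, fewer cells of a type and less RNA per cell cannot be told apart.

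Of 11 measured luminal markers 6 rose and 0 fell, Elf3 at 1.26 and Cd24a at 1.18 among them, with list means of 9.63 to 9.89 in wild type and 10.28 to 10.35 in transgenic arrays. Of 12 smooth muscle markers 3 fell, Pcp4 at -1.20 and Smtn at -0.70 among them. Of 11 measured fibroblast markers 2 fell, Dcn at -1.15 and Pdgfra at -0.74, the latter not when any of 6 arrays was left out (limma adjusted p up to 0.129). Of 12 endothelial markers 0 passed in limma, and the smallest p-value was that of Egfl7 (-0.30, limma adjusted p = 0.184). The list means were 8.14 to 8.83 against 7.70 to 8.08 for smooth muscle, 6.80 to 8.09 against 6.70 to 6.94 for fibroblasts and 4.67 to 5.12 against 4.81 to 4.93 for endothelium, wild type against transgenic arrays. Of 12 macrophage markers Mrc1 rose (2.27, limma adjusted p = 0.000106) and 11 did not pass. In that list 3 values were positive and 9 negative, with a median of -0.21. Of 8 measured T and NK cell markers 0 passed in limma, and the smallest p-value was that of Prf1 (-0.31, limma adjusted p = 0.0961). Both means lay below every array median for 7 of these 8 markers and for 7 of the 12 endothelial ones, where a change can be missed. Of 3 measured nerve markers Ncam1 fell by its brightest probe set (-1.54), but only 2 of its 6 probe sets passed, over a range of -1.81 to 0.18. Without probe sets marked as shared between transcripts or as variants, Ncam1 was at -0.15 (limma adjusted p = 0.606). A stromal score, the mean of the centred values of the smooth muscle and fibroblast lists, lay between -0.16 and 0.82 in wild type arrays. In transgenic arrays it lay between -0.43 and -0.18. These ranges do not overlap, so the score can take up part of the group difference. A call lost with it therefore cannot be assigned to stroma. With this score as a covariate, Dusp6 was at -0.73 ± 0.14 (SE; limma adjusted p = 0.0173) and kept its call. Spry1 was at 0.68 ± 0.20 (SE) and missed it (limma adjusted p = 0.105). Fgfr1 was at -0.31 (limma adjusted p = 0.390) and Hbegf at -0.35 (limma adjusted p = 0.568) with that covariate. The called genes Igf1r, Erbb3, Map2k1, Araf, Mknk2, Ptpn1, Dok1, Klf6, Kif1c and Myo6 missed the threshold with it too (limma adjusted p from 0.0724 to 0.415). The basal marker Krt15 also missed the threshold (limma adjusted p = 0.156), as did Pcp4, Smtn and Pdgfra, which are themselves part of the score. Over all genes, fewer rose and fewer fell with that covariate than without it, by the counts in the last paragraph.

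The log2 difference between 3 prime and 5 prime control probe sets, averaged over Gapdh and beta actin as a sign of RNA integrity, lay between 1.34 and 1.56 in wild type and between 0.97 and 1.40 in transgenic arrays. With it as a covariate Dusp6 was at -0.86 ± 0.17 (SE; limma adjusted p = 0.0337). Spry1 was at 0.42 ± 0.23 (SE) and did not pass (limma adjusted p = 0.649).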

How the data were processed

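Log2 values of 4 wild type and 4 transgenic arrays were used as deposited. Per the submitters' processing notes the authors used RMA (version not given in the sources used here), which corrects background, normalizes by quantiles and summarises probes. Thus a shift common to all transcripts would be lost. Arrays give no read depth, and their number limits the precision. Of 22690 probe sets 64 controls were left out, and 0 columns of values were unused. Symbols came from the platform annotation, updated by gene identifier in RefSeq's GRCm38.p6 table (20380 probe sets with 1 symbol, 691 with several, 1555 with none; 29 not in RefSeq). Of a gene's probe sets naming no other gene, the one brightest on average stands for it.

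The comparison, transgenic minus wild type, used lmFit and eBayes of limma 3.58.1 (R 4.3.3) over all 22626 probe sets, with Benjamini-Hochberg adjustment over these. The fit was tested on simulated data. Alternatives were other normalizations, a filter on dim probe sets, other priors and weights, covariates, the replicate number as a block and leaving out each array.

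The members and lists were chosen with earlier results of these data known. Named were all members, up to 4 called genes per pathway list and 2 per cell type list by size (or the smallest p where none passed), and the 3 nearest genes of each called member; others are said to be picked later. The labels give replicate numbers only, and whether these pair the samples is not known. Deviations of same-numbered arrays correlated between -0.31 and 0.33, and so few values cannot decide it.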

Additional observations from a re-analysis of the deposited data

Results flagged for a closer look

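In these groups of 4, 5 of 88 sets of values held an array far from the other 3, by Dixon's criterion, where chance gives about 1 in 20. Among the members this was Ier3, at 6.53 in transgenic array 1 against 6.91 to 6.95 in the other transgenic arrays. Leaving that array out gave Ier3 a log2 fold change of 0.46 (limma adjusted p = 0.0738). Dusp1 stood at 7.59 in wild type array 2 against 5.90 to 5.94 in the other wild type arrays. Araf stood at 8.44 in transgenic array 1 against 7.68 to 7.78. Ptpn1 stood at 8.44 in wild type array 3 against 8.89 to 8.94. Elf3, a luminal marker, stood at 8.17 in transgenic array 3 against 7.98 to 8.01.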

How the results depend on the processing

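Dusp6 kept its direction and its call under every alternative other than the basal score, leaving out each array included (log2 -0.90 to -0.79). The basal score and the 3 prime minus 5 prime difference as covariates were added after seeing the data, and the basal score nearly coincides with the groups. The stromal score did not overlap between the groups either. The causes of the changes given here were not tested. Spry1 kept its direction throughout but missed the threshold with the stromal score (0.68, limma adjusted p = 0.105), the basal score (0.83, 0.706) and the 3 prime minus 5 prime difference (0.42, 0.649), and ranged over 0.50 to 0.69 without single arrays. The second Spred1 probe set missed the threshold under quantile (-0.55) and cyclic loess normalization (-0.54), with the stromal score (-0.49) and with the 3 prime minus 5 prime difference (-0.94), and ranged over -0.69 to -0.49 without single arrays.

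With array weights the brightest Spred1 probe set passed at -0.41 and the brighter Spred2 one at -0.46, and without single arrays they ranged over -0.45 to -0.28 and -0.48 to -0.30. With the basal score Dusp6 was at -0.32, the first and second Spred1 probe sets at 0.93 and 0.38, those of Spred2 at 0.56 and 0.054, the brighter Spry4 one at 0.71 and Ier3 at -0.19, none of them called. The dimmer Spry2 probe set was at -0.0094 with array weights, -0.045 with the 3 prime minus 5 prime difference and -0.017 to 0.15 without single arrays. The brighter Spry4 one was at 0.016 with that difference, and Spry4 with its probe sets averaged was at 0.036.

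The number of members that rose was 0 with the stromal score, 0 with the basal score, 0 with the 3 prime minus 5 prime difference and 0 to 1 without single arrays. The number that fell was 3 with array weights, 2 with probe sets averaged, 0 with the basal score and 1 to 2 without single arrays. Of all genes, 324 rose and 263 fell with the stromal score, 3 and 0 with the basal score, 183 and 83 with the 3 prime minus 5 prime difference, and 408 and 259 at a threshold of 0.01, while 1068 fell with array weights. Over the alternatives that kept every array, the number that rose ranged from 3 to 1087. Without single arrays 494 to 821 rose and 359 to 693 fell. Of the 85 genes of the route and of the immediate early list, 5 rose and 0 fell with the stromal score, 0 and 0 with the basal score, 1 and 0 with the 3 prime minus 5 prime difference, and 9 fell with array weights. Without single arrays 4 to 12 rose and 1 to 7 fell. With the replicate block 6 of them rose and 2 fell, while Dusp6 stayed at -0.83 (limma adjusted p = 0.00264) and Spry1 at 0.60 (0.0266). Among the members, low signal limits the reading of Dusp6, Spry4 and the dimmer Spry2 and Spred1 probe sets.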
